A study of Homo sapiens with 12 samples.

Results

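The cytosolic ribosomal protein genes encode the proteins of the ribosome that translates nuclear-encoded mRNAs. They were taken by symbol: names of the form RPL or RPS followed by a number, with or without the letters A, X or L, plus RPLP0, RPLP1, RPLP2, RPSA and FAU. This gave 85 of the 59577 genes in the deposited table. Of these, 46 encode proteins of the large subunit and 32 proteins of the small subunit, and 7 are paralogs, expressed copies that resemble a subunit gene and are described apart (RPL3L, RPL7L1, RPL10L, RPL22L1, RPL26L1, RPL39L and RPS27L). The 78 subunit genes without the paralogs are called the canonical members. RNA came from H1299, an established human non-small cell lung cancer line that is labelled as lung adenocarcinoma, and was sequenced from 12 samples. The 6 normoxia samples were kept at 21% O2, 5% CO2 and 74% N2. The 6 hyperoxia samples were kept for 24 h at 60% O2, 5% CO2 and 35% N2, a setting meant to mimic supplemental oxygen. All groups are the same unmodified line, and separate cultures within a group are not mentioned in the labels, so the p-values here speak of the spread between samples that may be only technical repeats.

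Ribosomal proteins are assembled in fixed proportions, and their mRNAs are among the most abundant in a growing cell. Most of these mRNAs begin with a C followed by a run of pyrimidines, the TOP motif (terminal oligopyrimidine tract), through which LARP1 and the kinase mTOR control their translation and stability together. A few members have a paralog that can take the place of its partner in the ribosome in some tissues.

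The first bases of some members are shown because most of them carry this shared feature. Each window holds the 12 bases before and the 18 bases from the annotated start site on, 5′ to 3′ on the gene's strand, from RefSeq on GRCh38.p14. Capitals mark the longest run of C and T that begins at the start base or at one of the 10 bases after it. The first set holds large and small subunit genes that fell in hyperoxia. Of these, RPL10A and RPL3 do not begin with a C and at least 4 further pyrimidines, the motif searched for below.
RPL31 (chr2:101002277-101002306, plus strand): atccttcgcgctCTTCCTTTCCaacttgga
RPL10A (chr6:35468389-35468418, plus strand): gcaagacatgctagTCTCTTTTCCggttag
RPL3 (chr22:39319606-39319635, minus strand): aggccgaccggcCTCTaccggcgggatttg
RPL34 (chr4:108620564-108620593, plus strand): ggcttttttcttCCTCTTCCggggacgttg
RPS14 (chr5:150449722-150449751, minus strand): ccccctcccactCTCTCTTTCCggtgtgga
RPS18 (chr6:33272063-33272092, plus strand): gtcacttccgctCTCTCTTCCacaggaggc

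The second set holds genes that did not fall and that lay above the average member once the members were set against each other.
RPL24 (chr3:101686701-101686730, minus strand): ccatgattctctCTTTCTTTTCgccatctt
RPL41 (chr12:56116621-56116650, plus strand): aacttcgcctttCTCTCggccttagcgcca
RPS24 (chr10:78033851-78033880, plus strand): cgaatcgtggttCTCTTTTCCTCCTTggct
RPS25 (chr11:119018326-119018355, minus strand): gagcagcgcttcCTTTTTgtccgacatctt

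The third set pairs canonical genes with their paralogs, of which RPL22L1 has a pyrimidine run at its start and RPL26L1 and RPS27L do not.
RPL22 (chr1:6199578-6199607, minus strand): ttcgctcacctcCCTTTCTaactccgctgc
RPL22L1 (chr3:170870178-170870207, minus strand): ggccgtagcttcCTCTCTgctctcgcggcc
RPL26 (chr17:8383176-8383205, minus strand): cagcgtgtagttCTCTTCCCTTTTgcggcc
RPL26L1 (chr5:172958717-172958746, plus strand): cttccaggggtcggCgaacgaaacgcggag
RPS27 (chr1:153990750-153990779, plus strand): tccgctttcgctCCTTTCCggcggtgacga
RPS27L (chr15:63157460-63157489, minus strand): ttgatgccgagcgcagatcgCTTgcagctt

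The motif searched was a C at the first base followed by at least 4 more C or T, on the gene's strand only, at any start site annotated for the gene. RefSeq start sites were matched for 68 of the 85 members. Members with no window here include RPL39L, RPS2, RPL7, RPS20, RPL30, RPL23A, RPL23, RPS15A, RPL3L, RPL5, RPL8 and RPL37. The motif was present in 47 of 63 canonical members (74.6%), against 1404 of 27305 genes in the RefSeq table (5.14%). It was present in 28 of 38 large subunit genes and 19 of 25 small subunit genes. Among the members called lower in hyperoxia, 6 of 9 held it, and among those not called 41 of 54. Of the 5 paralogs matched, 1 held it, RPL22L1. The difference between these shares was not tested, and the letters describe annotated starts, not the start sites used in H1299.

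Expression values were TPM (read counts corrected for gene length and scaled to a common total per sample), as deposited. Each sample's TPM summed to nearly the same total, between 996138 and 998797, and the sequencing depth behind them is unknown. The number of genes at 1 TPM or more per sample ran from 14275 to 14635. Keratins KRT8 and KRT18 and vimentin were well above that level. The epithelial markers EPCAM and CDH1 and the lung adenocarcinoma markers NKX2-1 and NAPSA were each below 1 TPM on average in both groups. Of 12 markers of other cell types (blood, endothelium, fibroblasts, muscle and liver), 3 reached a mean of 1 TPM over all samples (CD68, COL1A1 and ACTA2), and none of these 3 passed the test of hyperoxia against normoxia.

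The canonical members together made up 22.1% ± 0.704 (SD, n = 6) of all TPM in normoxia and 21.5% ± 0.3 (SD, n = 6) in hyperoxia. The normoxia samples ranged from 21.4% to 23.2% and the hyperoxia samples from 21.1% to 21.9%. The hyperoxia mean was thus lower by 0.659 percentage points, about as much as the spread between normoxia samples, and the groups overlapped. Replicates 2 and 3 of normoxia were the highest of all 12, at 22.7% and 23.2%. The share of genes encoded by mitochondrial DNA, which enters the same total, was 7.55% ± 0.412 and 7.26% ± 0.251 (SD, n = 6 each) and was highest in the same 2 normoxia samples; its part in the result was not tested. Leaving the mitochondrial genes out of the total left the members at 23.9% ± 0.866 in normoxia and 23.1% ± 0.334 in hyperoxia (SD, n = 6 each).

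The shares of both subunits were lower on average in hyperoxia. Large subunit genes took 12.5% ± 0.377 of all TPM in normoxia and 12.2% ± 0.134 in hyperoxia, and small subunit genes took 9.6% ± 0.328 and 9.3% ± 0.176 (SD, n = 6 each). The log2 ratio of the mean large to the mean small subunit level, which no common factor per sample can change, was -0.139 ± 0.0064 in normoxia and -0.138 ± 0.0156 in hyperoxia (SD, n = 6 each). The hyperoxia samples lay on both sides of the normoxia samples, from -0.163 in replicate 2 to -0.117 in replicate 4. By mean levels the balance of the subunits thus differed by less than the spread between samples. By median levels the log2 ratio differed by 0.0239, more than the SD of the mean ratio in either group. The plot of summed levels by sample shows the sums and the ratio of means.

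**Figure D1:**
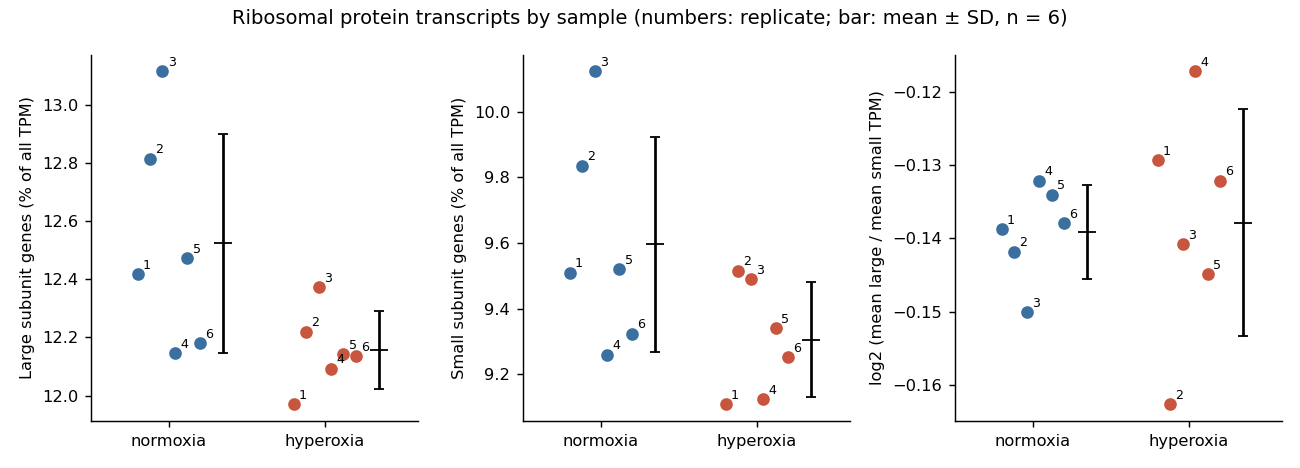
Summed TPM of the 46 large and the 32 small subunit genes in percent of all TPM, and the log2 ratio of their mean levels, for each sample (points, numbered by replicate), with mean ± SD of 6 samples. Normoxia replicates 2 and 3 stand above the rest in both sums, and the ratio is centred near -0.14 in both groups.

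Single members were tested with limma on log2(TPM + 1) over all 14520 genes with a mean of at least 1 TPM, which include 83 of the 85 members. RPL10L, a testis gene, was listed at 0 in every sample, and RPL3L, a paralog of striated muscle, was at 0.0917 ± 0.0581 TPM in normoxia and 0.1 ± 0.0537 TPM in hyperoxia (SD, n = 6 each). In hyperoxia 12 of the 83 members fell, none rose and 71 did not pass the threshold of 0.05 on the Benjamini-Hochberg adjusted p. Over all genes tested 5.63% were called lower and 11.7% higher, so members were called lower in a larger share (14.5%) and higher in none. At an unadjusted limma p under 0.05, 29 members were lower and 3 higher, where 10.9% of all genes tested were lower and 19.7% higher. By subunit, 7 of 46 large subunit genes fell and 4 of 32 small subunit genes. Of the 5 paralogs tested, RPL39L fell.

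Changes were small. The median log2 fold change of the canonical members was -0.05, against 0.03 over all genes tested, and it was -0.05 in each subunit. Of the 78, 58 had a log2 fold change below 0, against 6224 of the 14520 genes tested. Between -0.1 and 0.1 lay 64 of the 78, and the share of all genes in that range was not counted. The extremes were RPL31 at -0.33 and RPL24 at 0.11. Standard errors had a median of 0.033 on the log2 scale.

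**Figure D2:**
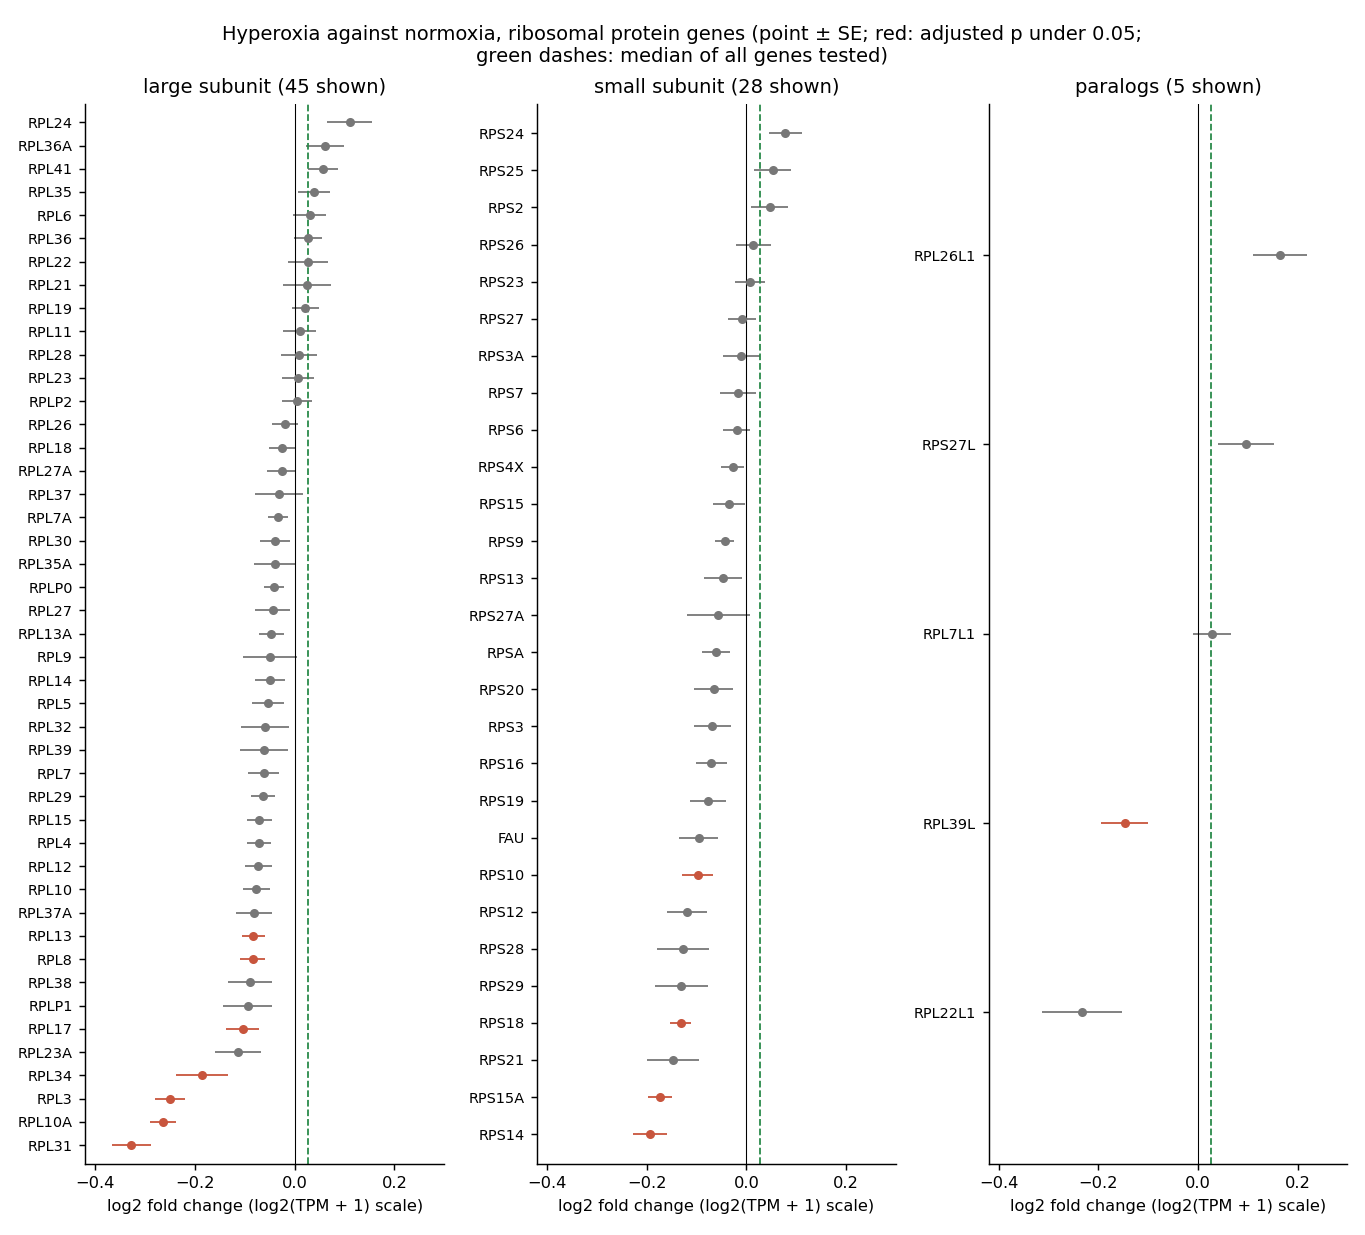
Log2 fold change (hyperoxia against normoxia, log2(TPM + 1) scale) ± SE of 78 of the 83 members tested, by subunit, with members called lower in red and the median of all genes as a dashed line. Most members lie just left of 0, and RPL31, RPL10A and RPL3 stand apart at the low end.

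In 6 members every hyperoxia sample was below every normoxia sample, against 2.58% of all genes tested, and in none was every hyperoxia sample above, against 6.2% of all genes. All 6 passed the test. RPL31 (ENSG00000071082), a large subunit protein at the mouth of the tunnel through which the new chain leaves, had the largest change. Its level had a lowest, median and highest value of 1997, 2057 and 2347 TPM in normoxia and 1625, 1668 and 1747 TPM in hyperoxia. The log2 fold change was -0.33 (standard error 0.04, limma, Benjamini-Hochberg adjusted p = 1.16e-04), with normoxia replicates 2 and 3 the highest.

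RPL10A (ENSG00000198755) forms the stalk of the large subunit that moves with the departing tRNA. It was measured at 1811, 1844 and 1959 TPM (lowest, median, highest) in normoxia and 1513, 1552 and 1603 TPM in hyperoxia. It fell by 0.26 on the log2 scale (standard error 0.03, limma, Benjamini-Hochberg adjusted p = 2.2e-05), the smallest p of any member. The lowest normoxia sample, at 1811 TPM, was well clear of the highest hyperoxia sample, at 1603 TPM.

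RPL3 (ENSG00000100316), a protein that reaches towards the peptidyl transferase centre, was at 2427, 2475 and 2555 TPM in normoxia and 1973, 2060 and 2240 TPM in hyperoxia. Its log2 fold change was -0.25 (standard error 0.03, limma, Benjamini-Hochberg adjusted p = 1.65e-04). Here the normoxia samples were close together and hyperoxia replicates 4 and 6 were the nearest to them.

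The other 3 without overlap belong to the small subunit. RPS14 (ENSG00000164587), a platform protein whose loss from one allele underlies the anaemia of a myelodysplastic syndrome, was at 1078, 1131 and 1211 TPM in normoxia and 937, 1004 and 1037 TPM in hyperoxia. It fell by 0.19 on the log2 scale (standard error 0.03, limma, Benjamini-Hochberg adjusted p = 0.00207).

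RPS15A (ENSG00000134419) was at 1871, 1941 and 2013 TPM in normoxia and 1678, 1708 and 1804 TPM in hyperoxia, a fall of 0.17 (standard error 0.02, limma, Benjamini-Hochberg adjusted p = 4.49e-04). RPS18 (ENSG00000231500), a head protein of the small subunit and one of the 4 most abundant members, was at 5700, 5849 and 5994 TPM in normoxia and 5250, 5329 and 5439 TPM in hyperoxia. Its fall of 0.13 (standard error 0.02, limma, Benjamini-Hochberg adjusted p = 0.00113) is the smallest of the 6. In normoxia, RPS18 lay between 5978 and 5994 TPM in replicates 1 to 3 and between 5700 and 5719 TPM in replicates 4 to 6, so the 2 sets of normoxia samples were themselves apart.

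**Figure D3:**
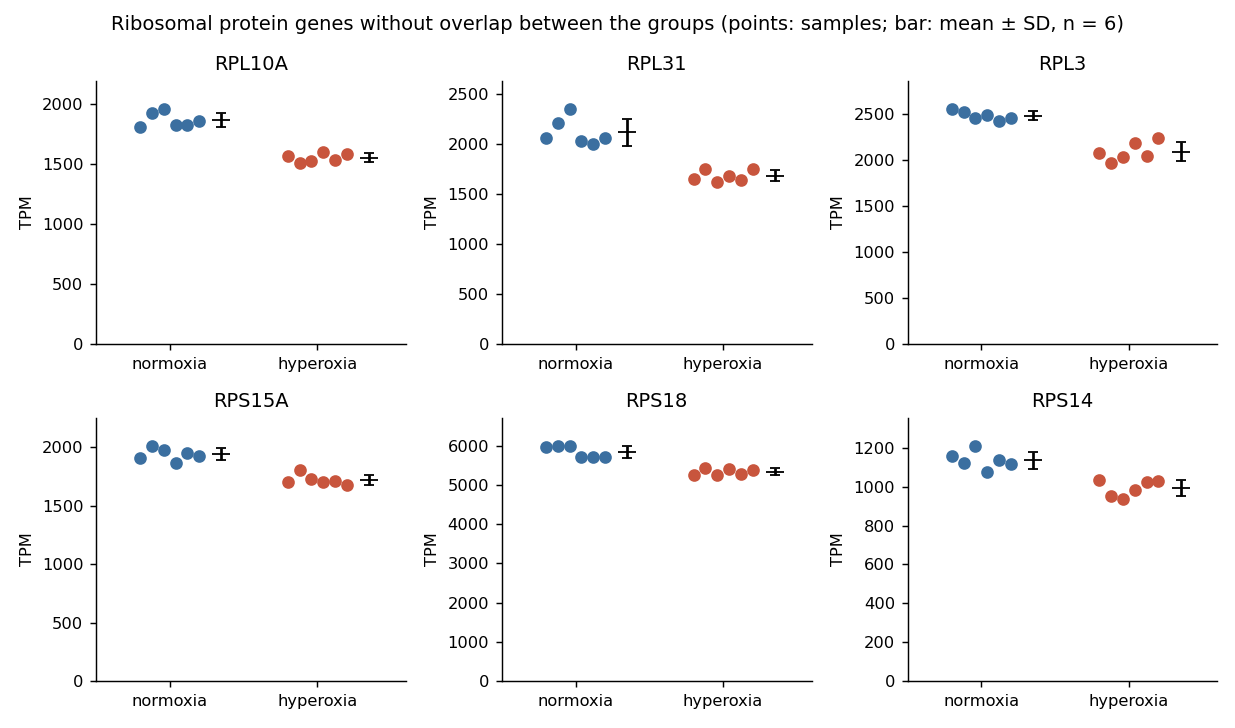
TPM in each sample (points) with mean ± SD of 6 samples for the 6 members whose groups do not overlap, on axes that start at 0. The groups are separate in each panel, and the change of the mean runs from -8.75% in RPS18 to -20.4% in RPL31.

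The remaining 6 members that fell had overlapping groups. RPL34 (ENSG00000109475) went from 1667 ± 125 to 1464 ± 98.4 TPM (SD, n = 6 each), a log2 fold change of -0.19 (standard error 0.05, limma, Benjamini-Hochberg adjusted p = 0.0281). RPL13 and RPL8, the latter at the peptidyl transferase centre, each fell by 0.08 (limma, Benjamini-Hochberg adjusted p = 0.0242 and 0.0358). RPL17, which lines the exit tunnel, and RPS10, a protein near the mRNA entry site that is mutated in Diamond-Blackfan anaemia, each fell by 0.10 (adjusted p = 0.0462 and 0.0434, limma).

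These 6 calls depended on single samples. Over 30 other ways of fitting the data, RPL10A, RPL31, RPL3, RPS15A and RPS14 kept their call each time, and RPS18 lost it once, under quantile normalization (adjusted p = 0.527, limma). RPL34 lost its call in 9 of the 30, RPL13 in 11, RPL8 in 15, RPL39L in 17, RPS10 in 18 and RPL17 in 21. RPL13 lost it without hyperoxia replicate 2, 3 or 5 or normoxia replicate 1, and RPL34 without hyperoxia replicate 1, 3 or 4 or normoxia replicate 2 or 3. RPL8, RPL17 and RPS10 lost it in 9 and RPL39L in 10 of the 12 fits that left out 1 sample. The number of members called lower in those fits ran from 7 (without hyperoxia replicate 1 or 5 or normoxia replicate 1) to 14 (without normoxia replicate 6). Of all genes tested, 4.14% to 6.45% were called lower in the same fits.

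In the members' total, normoxia replicates 1 to 3 were at 21.9%, 22.7% and 23.2% of all TPM and replicates 4 to 6 at 21.4%, 22.0% and 21.5%. Replicates 2 and 3 stood above the rest, and replicate 1 lay within the range of replicates 4 to 6. Fits without either set, chosen after seeing the data, show how far the counts rest on them. Without replicates 1 to 3 there were 7 members called lower and the median of the canonical members was -0.01. Without replicates 4 to 6 there were 19 and the median was -0.08. Of all genes tested, 3.11% and 2.58% were called lower in these fits. The labels do not tie these replicates to separate batches.

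Members that did not pass include the most abundant ones. On the length-corrected TPM scale, the canonical members spanned a 16.4-fold range of mean levels, from RPS26 at 556 TPM to RPL41 at 9095 TPM, with a median of 2357 TPM. RPL41, the smallest ribosomal protein and part of a bridge between the subunits, was at 8917 ± 366 TPM in normoxia and 9272 ± 301 TPM in hyperoxia (SD, n = 6 each), with overlapping groups. It was followed by RPS27 and RPS20, with log2 fold changes of -0.01 and -0.07, and by RPS18.

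At the low end, RPS26 stood at 553 ± 23.9 and 559 ± 23.7 TPM and RPL23A at 683 ± 53.8 and 629 ± 16.9 TPM in normoxia and hyperoxia (SD, n = 6 each). RPL36A and RPS28 were next, with log2 fold changes of 0.06 and -0.13 (limma, Benjamini-Hochberg adjusted p = 0.295 and 0.113). Members that fell lay across much of the range, from RPS14 at the lower end to RPS18 at the upper.

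Because all members share the scaling of their sample, they were also compared with each other, by taking each sample's mean log2 level of the canonical members as the reference. This removes any change common to the set, and it lowered the median standard error from 0.033 to 0.0272. Against that reference 7 members were lower and 9 higher, where 2.8% of all genes tested were lower and 15.6% higher. The lower members were RPL31 at -0.28, RPL10A at -0.21, RPL3 at -0.20, RPS14 at -0.14, RPL34 at -0.13, RPS15A at -0.12 and RPS18 at -0.08. All 7 had also fallen on the deposited scale.

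The 9 members higher than the members' average included the paralog RPL26L1 (0.22) and 8 canonical genes. RPL24, a protein of a bridge between the subunits, was at 0.16 (standard error 0.03, limma, Benjamini-Hochberg adjusted p = 0.00481) and RPS24, a small subunit protein mutated in Diamond-Blackfan anaemia, at 0.13 (SE 0.03, adjusted p = 0.00537, limma). RPL41 and RPL36A were at 0.11, RPS25, which some viral mRNAs need for internal initiation, at 0.10, RPL35 at 0.09, RPL6 at 0.08 and RPL19 at 0.07. RPL24, RPS24, RPS25, RPL35, RPL6 and RPL19 are named after their values were seen.

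On the deposited scale none of these 9 passed the test. RPL24 was at 1649, 1734 and 1910 TPM (lowest, median, highest) in normoxia and 1762, 1874 and 2068 TPM in hyperoxia, a log2 fold change of 0.11 (standard error 0.05, limma, Benjamini-Hochberg adjusted p = 0.119). RPS24 was at 4189, 4403 and 4629 TPM and 4271, 4693 and 4835 TPM, a log2 fold change of 0.08 (adjusted p = 0.131, limma). The groups overlapped in both genes, and the sample that was high for RPL24 within each group, replicate 3, was also the highest for RPS24.

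A common factor per sample leaves the differences between members as they are and moves the set as a whole. With TPM as deposited, the canonical median was -0.05 and that of all genes 0.03. Scaling samples by the median of gene ratios, or by a trimmed mean of them, moved the members to -0.08 each time and all genes to -0.0009 and -0.0007. Scaling by the upper quartile moved the members to -0.10 and all genes to -0.02. Leaving the mitochondrial genes, or the members themselves, out of the total gave -0.05 and 0.02, or -0.06 and 0.02.

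Quantile normalization, which forces every sample to the same distribution, gave -0.01 for the members and 0.01 for all genes. Of these 7 scalings, only quantile normalization could much change the members' median minus that of all genes. A common factor moves both nearly alike. This difference was -0.0221 under quantile normalization and lay between -0.0798 and -0.0736 under the others. The number of canonical members with a negative change ran from 46 under quantile normalization to 75 under the upper quartile. Calls of the 83 members were 11 lower under the median of ratios and under the trimmed mean, 15 under the upper quartile and 8 under quantile normalization. Of all genes tested, 8.795%, 8.788%, 10.1% and 8.32% were called lower in these settings. Under quantile normalization the members' share called lower was thus close to that of all genes. Higher calls of members appeared only under quantile normalization among these 7, for 5 members, among them RPL24, RPL6, RPS24 and RPS25, named after their values were seen. Of all genes tested, 9.87% were called higher under quantile normalization.

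The scaling also moved the background. Of all genes called, 32.5% were lower with TPM as deposited, 50.0% under the median of ratios, 49.9% under the trimmed mean, 45.7% under quantile normalization and 61.5% under the upper quartile. Against the members' own mean, 15.2% of all genes called were lower. TPM values are shares, so whether the cells held less ribosomal protein mRNA in absolute amount cannot be told from them, and the counts above are relative to each scaling.

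**Figure D4:**
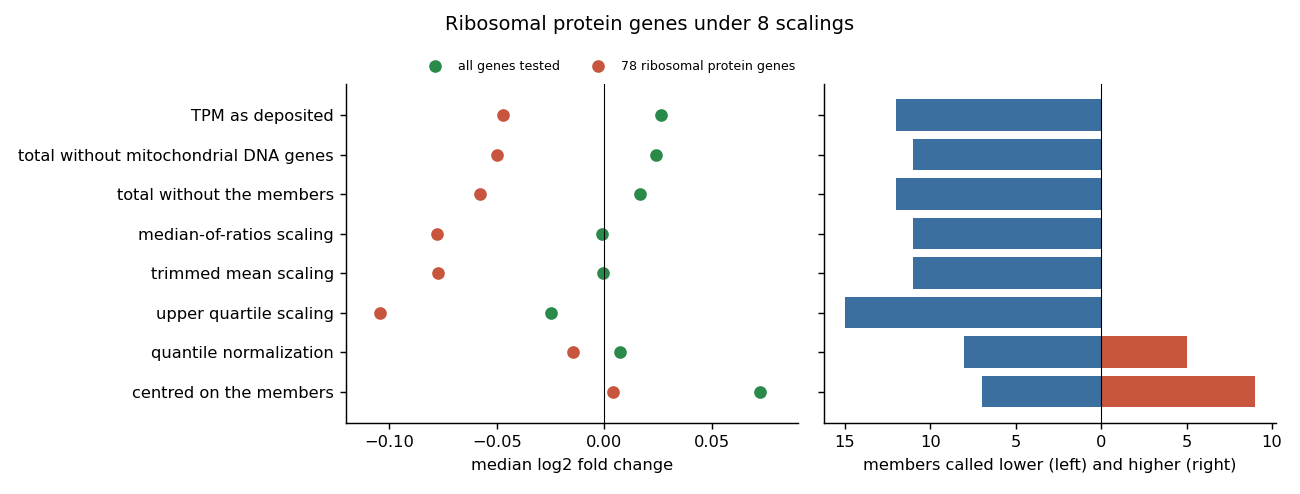
Median log2 fold change of the 78 canonical members and of all genes tested (left), and the number of members called lower and higher (right), under 8 scalings of the same values. The members' median lies left of that of all genes under each scaling. A common factor per sample moves both medians nearly alike, so only quantile normalization could much change the gap between them. Higher calls appear under quantile normalization (5) and after centring on the members (9).

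The paralogs were compared with their partners as a ratio within each sample, which is free of scaling, by exact permutation tests (two-sided) with Benjamini-Hochberg adjustment over the 5 ratios. RPL26L1, which differs little from RPL26, rose against its partner. It was at 3.21%, 3.39% and 3.46% of RPL26 (lowest, median, highest) in normoxia and 3.53%, 3.82% and 4.10% in hyperoxia. All 6 hyperoxia samples were above all normoxia samples, and the log2 ratio was higher by 0.19 (SE 0.04, exact permutation test, adjusted p = 0.0108). On its own RPL26L1 went from 145 ± 9.11 to 163 ± 12.1 TPM (SD, n = 6 each, with a log2 fold change of 0.16, limma, Benjamini-Hochberg adjusted p = 0.0514).

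RPL22L1, whose mRNA is known to be held down by RPL22 protein, fell against RPL22. It was at 7.78%, 8.16% and 9.68% of RPL22 in normoxia and 6.23%, 7.03% and 7.85% in hyperoxia. In 5 of 6 hyperoxia samples the ratio was below every normoxia sample, and the difference in log2 ratio was -0.26 (SE 0.07, exact permutation test, adjusted p = 0.0108). On its own RPL22L1 went from 78.7 ± 8.5 to 66.9 ± 7.17 TPM (SD, n = 6 each, with a log2 fold change of -0.23, limma, Benjamini-Hochberg adjusted p = 0.0645), while RPL22 stood at 943 ± 39.7 and 961 ± 55.2 TPM.

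RPL7L1, a protein of early ribosome assembly, rose slightly against RPL7, from 2.90% ± 0.146 to 3.09% ± 0.0548 (SD, n = 6 each; log2 difference 0.09, exact permutation test, adjusted p = 0.0289). One normoxia sample, replicate 6, overlapped the hyperoxia samples. RPS27L, a copy of the small subunit gene RPS27, was at 0.761% ± 0.0232 and 0.822% ± 0.0831 of RPS27 (SD, n = 6 each; log2 difference 0.11, exact permutation test, adjusted p = 0.0622). Its highest value, 0.985% in hyperoxia replicate 1, stands apart from the other 5, and without it the log2 difference was 0.0536.

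RPL39L, a copy of the tunnel protein RPL39 that is most used in the testis, was at 92.3 ± 6.52 TPM in normoxia and 83.1 ± 3.2 TPM in hyperoxia (SD, n = 6 each, with a log2 fold change of -0.15, limma, Benjamini-Hochberg adjusted p = 0.0485). As a share of RPL39 it was at 2.33% ± 0.116 and 2.19% ± 0.146 (log2 difference -0.09, exact permutation test, n = 6 each, adjusted p = 0.0931). The 5 paralogs thus made up between 0.761% and 8.34% of their partners on average in normoxia, and they did not move in 1 direction. The ratios of RPL22L1 and RPL26L1 passed in all 12 tests that left out 1 sample. That of RPL7L1 did not pass without normoxia replicate 3 or 5 or hyperoxia replicate 2, 3 or 5 (exact permutation test, adjusted p from 0.0505 to 0.0577). Without normoxia replicates 1 to 3, which leaves 3 samples against 6, the log2 differences of RPL7L1, RPL22L1 and RPL26L1 were 0.0748, -0.211 and 0.179, in the same direction. A single ratio can reach an exact permutation p of 0.0119 at that size, and RPL26L1, whose groups stayed apart, was at p = 0.0238 unadjusted and 0.119 adjusted, so missing the threshold there says little. Without replicates 4 to 6 the differences were 0.107, -0.312 and 0.191 (adjusted p = 0.0397 each, exact permutation test).

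**Figure D5:**
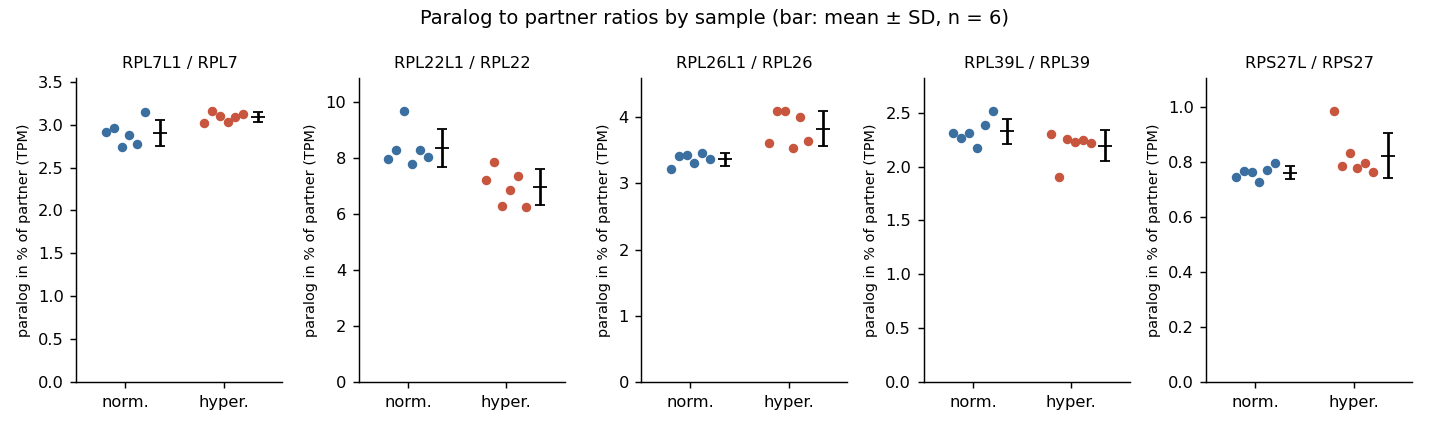
TPM of each paralog in percent of its partner's TPM in each sample (points) with mean ± SD of 6 samples, on axes that start at 0. RPL26L1 is higher in all 6 hyperoxia samples than in any normoxia sample, and RPL22L1 is lower in 5 of 6.

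Ribosomal protein genes have many processed pseudogenes, and short reads may be split between a gene and a near-identical copy. The table held 1227 rows named as pseudogenes of the 78 canonical members, which took 0.65% ± 0.0473 of all TPM in normoxia and 0.679% ± 0.0383 in hyperoxia (SD, n = 6 each). For 71 members the pseudogenes' level was under 1% of the member's own. For 7 it exceeded 10%, and the values of these members are uncertain. They are RPL23A, RPS28, RPL21, RPL39, RPS26, RPL22 and RPS2.

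For RPL23A the copies, mainly RPL23AP42 at a mean of 2104 TPM, stood at 334% of the gene itself. For RPS28 they stood at 156% and for RPL21 at 61.8%. For RPL39, RPL39P3 at a mean of 1302 TPM brought them to 33.9%. Adding the copies to each member turned the log2 fold change of RPL23A from -0.11 to 0.07, neither past the test, and left the 12 members that fell the same. Added copies also moved RPL39 from -0.06 to 0.0087 and RPL22 from 0.03 to -0.0076.

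A further 3 rows are readthrough transcripts that begin in a member. RPL36A-HNRNPH2 stood at 33.8% of the level of RPL36A and went from 305 ± 69.5 to 220 ± 36.8 TPM (SD, n = 6 each, with a log2 fold change of -0.45, limma, Benjamini-Hochberg adjusted p = 0.0481). RPL17-C18orf32 stood at 11% of RPL17 and went from 381 ± 53.7 to 307 ± 35.7 TPM (log2 fold change -0.30, adjusted p = 0.0511, limma). RPS10-NUDT3 was at 0.46% of RPS10. Since these rows share exons with RPL36A and RPL17, the values of both genes depend on how reads were assigned.

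Of 5 ribosomal protein genes whose names fall outside the rule, 3 were tested, of which 1 fell and 1 rose. Among all genes tested 5.63% fell and 11.7% rose. RACK1 (ENSG00000204628), a scaffold on the small subunit, fell from 3512 ± 108 to 3243 ± 109 TPM (SD, n = 6 each, with a log2 fold change of -0.11, limma, Benjamini-Hochberg adjusted p = 0.0123). RPL36AL (ENSG00000165502), the expressed copy of RPL36A, rose from 296 ± 8.33 to 331 ± 13.5 TPM (log2 fold change 0.16, adjusted p = 0.00362, limma), with its lowest hyperoxia sample at 318 above its highest normoxia sample at 308 TPM. RACK1 lost its call after centring on the members, under quantile normalization, without the variance trend, without the filter and without normoxia replicates 1 to 3. RPL36AL lost it with median-of-ratios, trimmed mean and upper quartile scaling and without normoxia replicates 4 to 6.

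Genes around the ribosomal proteins were read from lists. Of 19 other genes listed for a TOP motif, most of them translation factors, 1 fell and 3 rose, against 5.63% lower and 11.7% higher among all genes, and their median log2 fold change was 0.015 (0.03 over all genes). The split turned to 3 lower and 1 higher with median-of-ratios or trimmed mean scaling and to 4 lower and 1 higher with the upper quartile. The background moved too. With the median of ratios or the trimmed mean 8.8% of all genes were lower and 8.8% higher, and with the upper quartile 10.1% and 6.30%. HNRNPA1, a splicing factor rather than a translation gene, fell from 2127 ± 79.3 to 1809 ± 78.5 TPM (SD, n = 6 each, with a log2 fold change of -0.23, limma, Benjamini-Hochberg adjusted p = 5.02e-04). EIF4A2, an RNA helicase of initiation, rose by 0.16 and TPT1, the translationally controlled tumour protein, by 0.08.

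Of 12 chaperones, assembly factors and importers listed for ribosomal proteins, 3 rose and none fell, with a median of 0.13, where 11.7% of all genes were called higher. None was called higher with median-of-ratios, trimmed mean, upper quartile (1 lower) or quantile scaling, without the filter, or without hyperoxia replicate 2, and 7 were after centring on the members. Of all genes, 3.87% to 9.87% were called higher in the former fits and 15.6% after centring. PDCD2, the chaperone of RPS2, rose by 0.19, LTV1, which assembles the small subunit head, by 0.17 and AAR2, known for its part in assembling the U5 particle of the spliceosome, by 0.16 (limma, Benjamini-Hochberg adjusted p = 0.0254, 0.0268 and 0.0329). At an unadjusted limma p under 0.05, 8 of the 12 were higher, where 19.7% of all genes were. The importers on the list carry many other cargoes.

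Of 16 measured regulators of TOP mRNAs and of the mTOR pathway, 3 fell and 3 rose. Among all genes tested 5.63% were lower and 11.7% higher. The stress-induced mTOR inhibitor DDIT4 fell from 140 ± 39.3 to 38.6 ± 3.96 TPM and the stress-induced SESN2 from 26 ± 5.17 to 14.3 ± 1.51 TPM (SD, n = 6 each), with log2 fold changes of -1.80 and -0.81. AKT1S1, another mTOR inhibitor, rose by 0.19. LARP1, the TOP mRNA-binding protein, was at -0.14 and MTOR at -0.01 (limma, Benjamini-Hochberg adjusted p = 0.0805 and 0.961).

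Again 5.63% of all genes tested were lower and 11.7% higher. Among 8 factors linked to ribosomal protein promoters, TBPL1 rose by 0.26 (limma, Benjamini-Hochberg adjusted p = 0.00985) and 1 other gene fell. That gene was MYC, whose deposited fold change and means disagree with its own sample values, at a log2 fold change of -1.31 from the sample values. No factor was called higher with upper quartile scaling, by the exact rank-sum test or without normoxia replicates 1 to 3, and 2 were without replicates 4 to 6. With median-of-ratios, trimmed mean, upper quartile or quantile scaling 3 were called lower, where 8.32% to 10.1% of all genes were.

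The ribosome of mitochondria has its own proteins. Of 78 mitochondrial ribosomal protein genes 24 rose (30.8%) and 2 fell (2.56%), against 11.7% higher and 5.63% lower among all genes tested. Their median log2 fold change was 0.09 (0.03 over all genes). With upper quartile scaling 14 rose and 5 fell, where 6.30% of all genes were called higher and 10.1% lower. MRPS5 went from 86.8 ± 2.53 to 106 ± 3.92 TPM, MRPL9 from 117 ± 3.66 to 141 ± 2.6 TPM and MRPL37 from 133 ± 6.44 to 158 ± 2.08 TPM (SD, n = 6 each). Their log2 fold changes were 0.28, 0.27 and 0.25 (limma, Benjamini-Hochberg adjusted p = 1.07e-04, 3.7e-05 and 3.38e-04). The difference between the cytosolic and the mitochondrial set was not tested.

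The authors' deposited table gives their own test for the members. There, in the authors' deposited table, 18 members had an adjusted p under 0.05 and a lower level in hyperoxia, none a higher level, and 71 a log2 ratio below 0. The shares of all genes in that test were not counted, so these counts stand without a background. Of the 12 members that fell here, 11 are among these 18, the exception being RPL17 (adjusted p = 0.0681 in the authors' deposited table). None of the 85 is marked as changed in the authors' deposited table.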

How the data were processed

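RNA from 12 samples of H1299 cells (6 normoxia, 6 hyperoxia) was measured, with groups taken from the treatment labels. The submitters' processing notes name HTSeq 0.9.1 for counting and edgeR 3.16.5 for normalisation and testing. The aligner, annotation and TPM computation were not given in the sources used here. In addition the notes list a mouse build (mm9) although all identifiers are human. The labels and the series' text name different library kits, and only the latter gives a removal of ribosomal RNA, so how libraries were made is unclear. The unit of the sample values is TPM, per the file headers (the table is named for another unit), and such values keep no depth. The authors' deposited table also holds group means in TPM, a linear ratio (fold), the log2 of that ratio, and a p-value with its adjusted p-value.

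Genes with a mean of at least 1 TPM were tested with limma 3.58.1 in R 4.3.3 (lmFit, eBayes with trend) on log2(TPM + 1). Tests were two-sided and adjusted by Benjamini-Hochberg over all genes tested, with calls at an adjusted p under 0.05. This scale understates the changes of low genes. For paralog ratios an exact permutation test (two-sided) was used. Sums, subunit ratios and lists are described without a test. The limma step was tested on simulated data. The members and lists were chosen with earlier results of these data known. Genes named are the members past the threshold, the paralogs with their partners, the 4 highest and the 4 lowest canonical members, the 2 largest changes not past it, up to 3 of each other list by smallest p, and LARP1, MTOR, RACK1 and RPL36AL. A few genes are not reported here one by one, though they stay in the fits and counts. Alternatives were other scalings, a pseudocount of 0.1, other minimum levels (none or 5 TPM), eBayes without trend or robust, a replicate block, the exact rank-sum test, added pseudogenes, rows with disagreeing values left out (78, no member among them), and samples left out. Start sites came from RefSeq (GRCh38.p14), matched by symbol.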

Additional observations from a re-analysis of the deposited data

Results flagged for a closer look

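Single samples stood apart from the other 5 of their group in 7 of 106 groups of values (6.60%), where chance flags about 1 in 20. Among members and their ratios, RPL26 was low in hyperoxia replicate 6, at 4110 TPM against 4257 to 4300 TPM in the others. RPL22L1 was high against RPL22 in normoxia replicate 3, at 9.68% against 7.78% to 8.29%. RPL39L was low against RPL39 in hyperoxia replicate 2, at 1.90% against 2.22% to 2.31%. RPS27L was high against RPS27 in hyperoxia replicate 1, at 0.985% against 0.761% to 0.833%. Without this sample the log2 difference between the groups was 0.0536 in place of 0.11. Among other genes, TPT1 was at 2849 TPM in normoxia replicate 4 (others from 2954 TPM). AAR2 was at 26.6 TPM in hyperoxia replicate 2 (others up to 23.8 TPM) and MTOR at 35.5 TPM in the same sample (others from 40.1 TPM).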

How the results depend on the processing

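Limits first: depth is unknown, TPM are shares of a total, and samples may be technical repeats. Of the 12 members called lower (7 large, 4 small subunit), 6 were left (3 large) without the eBayes trend, by the exact rank-sum test or without a filter. Of all genes tested, 5.35%, 3.55% and 1.75% were called lower there. Centring on the members gave 7 (4 large) with 9 higher (6 large, 2 small) and a canonical median of 0.0043, and quantile normalization 4 large lower and 5 members higher (3 large, 2 small). Robust eBayes and a minimum of 5 TPM each added 1 higher, where 11.6% and 15.5% of all genes tested were called higher. Without normoxia replicates 1 to 3 there were 7 (4 large), and without replicates 4 to 6 19 (8 small). Leaving out 1 sample gave 7 to 14 members and 4 to 9 large subunit genes called lower, and 0 to 2 members called higher (up to 1 large, 1 small). Of all genes tested, 4.14% to 6.45% were called lower and 9.08% to 10.8% higher in those fits. The upper quartile moved the canonical median to -0.10 and the difference in their summed share to -1.56 percentage points, which was -0.11 under quantile normalization. The median in place of the mean level gave a subunit ratio difference of 0.0239, against 0.0013 by the mean (pooled SD 0.0119). Of the lists of other ribosome, translation, chaperone, regulator and promoter genes, 6 genes fell and 11 rose, against 5.63% and 11.7% of all genes. The median of ratios and the trimmed mean each gave 11 lower and 4 higher, against 8.8% of all genes in each direction. The upper quartile gave 13 and 3, against 10.1% and 6.30%. Higher were 17 after centring, 7 under quantile normalization, 6 by rank-sum and 5 without a filter. Of all genes 15.6%, 9.87%, 8.3% and 3.87% were higher there. Without normoxia replicates 1 to 3 and 4 to 6, 5 and 6 were higher, against 5.35% and 6.76% of all genes. With 1 sample left out 6 to 13 were higher, against 9.08% to 10.8% of all genes.

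Over all genes tested, same-numbered samples did not deviate together (correlations from -0.117 to 0.0169). This cannot tell whether the numbers pair cultures, which the labels do not state. In the members' share of all TPM, replicates 2 and 3 were the highest of normoxia (22.7% and 23.2%) and of hyperoxia (21.7% and 21.9%). With a replicate block 16 members were lower and 2 higher (1 large), where 6.12% of all genes tested were called lower and 11.4% higher. In the block the ratio differences were 0.0907 for RPL7L1 (exact test, adjusted p = 0.104), -0.26 for RPL22L1 and 0.19 for RPL26L1 (adjusted p = 0.0781 each, exact test), with 6 pairs. The last 2 were at an unadjusted p of 0.03125 (exact test), the smallest that 6 pairs allow, so for them missing the threshold says little. Ratio differences without normoxia replicates 1 to 3 were 0.0748, -0.211 and 0.179 (adjusted p = 0.139, 0.139 and 0.119, exact permutation test). With 1 sample left out the differences ran over 0.074 to 0.1145 for RPL7L1, -0.1057 to -0.0459 for RPL39L and 0.0536 to 0.1278 for RPS27L, each on both sides of the threshold. With pseudogenes added RPL39L (-0.16) and RPS27L (0.11) passed (exact permutation test, adjusted p = 0.0216 and 0.0498).

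Direction changed for some genes that were not called. Under the median of ratios, trimmed mean and upper quartile, RPL22 was at -0.0044, -0.0042 and -0.0311, RPL7L1 at -0.0023, -0.0021 and -0.0289, RPS26 at -0.0168, -0.0166 and -0.0435. The upper quartile gave RPL41 at -0.0009. Added pseudogenes gave RPL22 -0.0076, RPL23A 0.0746 and RPL39 0.0087. Centring gave RPL26 0.0319, RPS27 0.0429 and MTOR 0.0449. Without normoxia replicates 1 to 3, RPL39 was at 0.0091 and RPS27 at 0.0085; without 4 to 6, RPL22 was at -0.0013, RPS26 at -0.0249 and MTOR at 0.0274. With 1 sample left out RPS26 ran from -0.0038 to 0.0331, RPS27 from -0.0205 to 0.0058 and MTOR from -0.0258 to 0.0273. The cause of these changes was not tested.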
